A study of Mus musculus with 2 samples.

Results

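The vascular endothelial growth factor (VEGF) ligands and receptors are described here across the cells of subcutaneous Lewis lung carcinoma (LLC) tumours of the mouse. The 9 genes were 4 ligands (Vegfa, Vegfb, Vegfc and Pgf) and 5 receptors or co-receptors (Flt1, Kdr, Flt4, Nrp1 and Nrp2), taken by symbol. All 9 had a row in both feature tables, among 19070 features in all. The first library came from tumours of mice given anti-PD-1 antibody and is described as holding LLC cells that were alive 7 days later. The second came from tumours given an IgG2a isotype control antibody, which the design text describes as untreated. Both libraries hold whole tumour tissue from LLC tumour-bearing mice, and the labels do not say how many mice went into each. Each group had 1 library, so no difference between them has a replicate check and no test was made. Intervals are exact 95% intervals that cover counting error only.

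VEGF-A is the main growth factor for blood vessel endothelium, and tumour cells and macrophages are known to make it when oxygen is scarce, through hypoxia-inducible factors that bind response elements near the gene. It signals mainly through the kinase receptor encoded by Kdr. The product of Flt1 binds VEGF-A, VEGF-B and placental growth factor (Pgf) tightly with weak kinase activity and can act as a decoy. VEGF-C signals through the receptor encoded by Flt4, which is best known in lymphatic vessels and also occurs on the blood vessels of tumours. Neuropilins are co-receptors with no kinase domain, which bind VEGF ligands as well as class III semaphorins. In tumours this family is known for setting vessel growth and leakiness, and Flt1 is also known on monocytes.

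Vegfa lies on the minus strand of mouse chromosome 17 (mm10, GENCODE M21, chr17:46016993-46032369), and Pgf lies on the minus strand of chromosome 12 (chr12:85166635-85177790). The promoter windows of these 2 ligands are shown because they were the ligands whose level, in tumour-marker and myeloid-marker cells, differed most between cells with low and high hypoxia gene levels. Each window is 300 bases long, from 250 bases before to 50 bases after an annotated start site (RefSeq, GRCm38.p6, 5′ to 3′ on the gene's strand). Capitals mark ACGTG or GCGTG, the core letters of a hypoxia response element, on either strand.
Vegfa, start site inside the gene, chr17:46025114-46025413: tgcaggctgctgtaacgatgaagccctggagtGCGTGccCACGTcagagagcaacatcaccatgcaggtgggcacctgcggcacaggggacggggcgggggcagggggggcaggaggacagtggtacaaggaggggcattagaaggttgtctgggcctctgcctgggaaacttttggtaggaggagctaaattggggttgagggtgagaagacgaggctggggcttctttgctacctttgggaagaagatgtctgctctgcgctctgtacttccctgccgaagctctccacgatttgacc
Vegfa, start site at the gene's 5′ end, chr17:46032328-46032627: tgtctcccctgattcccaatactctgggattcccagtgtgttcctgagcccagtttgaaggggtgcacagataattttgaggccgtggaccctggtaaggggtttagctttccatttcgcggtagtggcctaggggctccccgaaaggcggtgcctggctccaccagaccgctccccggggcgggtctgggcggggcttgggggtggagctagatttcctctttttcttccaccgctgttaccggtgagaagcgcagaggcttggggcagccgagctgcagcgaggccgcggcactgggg
Pgf, upstream start site, chr12:85177264-85177563: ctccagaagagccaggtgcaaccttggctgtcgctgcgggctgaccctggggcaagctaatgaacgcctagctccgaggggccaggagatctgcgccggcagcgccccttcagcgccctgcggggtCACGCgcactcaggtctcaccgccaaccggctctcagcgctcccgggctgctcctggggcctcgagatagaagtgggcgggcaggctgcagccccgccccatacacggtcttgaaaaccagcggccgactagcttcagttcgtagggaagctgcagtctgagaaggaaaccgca
Pgf, downstream start site, chr12:85175933-85176232: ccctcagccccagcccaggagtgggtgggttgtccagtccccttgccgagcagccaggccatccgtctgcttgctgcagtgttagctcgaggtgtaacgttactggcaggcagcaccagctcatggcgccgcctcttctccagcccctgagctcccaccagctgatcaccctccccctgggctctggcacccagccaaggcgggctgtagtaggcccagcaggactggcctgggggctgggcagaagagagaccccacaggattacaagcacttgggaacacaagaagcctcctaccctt
The inner Vegfa window held 2 matches, beginning 218 and 211 bases before its start site. This window lies wholly within the gene's span, so these letters may fall in transcribed sequence. Sequence more than 250 bases before a start site was not read. The window at the 5′ end of Vegfa held 0, the upstream Pgf window held 1, beginning 124 bases before its start site, and the downstream Pgf window held 0. These letters are common, since 14380 of 32851 promoter windows of this length (43.8%) held at least 1 match and 20.6% held at least 2. Among the windows of the hypoxia gene list used below, 20 of 28 (71.4%) held at least 1. All 9 members matched the promoter table, with 11 windows. Vegfb, Kdr and Nrp2 had 2 matches each, Flt1 and Nrp1 had 1 each, and Vegfc and Flt4 had 0. A match describes letters in the window and is no evidence of a bound factor.

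The anti-PD-1 library held 9423 barcodes with 115407230 UMIs (unique molecular identifiers, each counting 1 captured molecule), and the control library held 8441 barcodes with 113268618 UMIs. After a light filter 9422 anti-PD-1 cells and 8395 control cells remained, with median depths of 8744 and 7473 UMIs. The 2 libraries shared 107 barcodes. Cells were placed by their own UMIs of marker genes that include no VEGF family member. Tumour-marker cells (Hmga2, Igf2bp1 and others) numbered 5617 in the anti-PD-1 library and 4151 in the control library, myeloid-marker cells (Lyz2, C1qa, Csf1r and others) 1884 and 1691, and endothelial-marker cells (Cdh5, Cldn5, Pecam1 and others) 31 and 65. Levels are given as counts per 1000000 (CPM), that is UMIs of a gene per 1000000 UMIs of all genes in the same class and library. The endothelial marker Cdh5 had 1366 CPM in anti-PD-1 endothelial-marker cells and 906 in control ones, against 3.96 and 5.10 in tumour-marker cells. Cells that passed 2 classes were left out as mixed (331 anti-PD-1 and 442 control cells), and no doublet caller was run. Red cell genes summed to 56.5 CPM in anti-PD-1 tumour-marker cells and 620 in control ones. The part of this gap in any result was not tested, and leaving red cell genes out of the totals changed no call.

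Levels are compared for 1 gene at a time, and their order is given over the 8 classes with at least 20 cells in each library. Mural-marker cells (4 in each library) and dendritic-marker cells (12 in anti-PD-1 and 6 in control) were too few to be ranked. Vegfa was higher in myeloid-marker than in tumour-marker cells. It stood at 131 CPM in anti-PD-1 and 348 in control myeloid-marker cells, against 45.5 and 84.7 in tumour-marker cells. This is 2.87-fold higher in the myeloid class of the anti-PD-1 library (2.67 to 3.08) and 4.11-fold higher in that of the control library (3.91 to 4.32). Within the myeloid class, cells with monocyte markers (Ccr2, Chil3) had 213 CPM in the anti-PD-1 library and 560 in the control library. Macrophage-marker cells (C1qa, Adgre1, Mrc1) had 90.6 and 198. Monocyte-marker cells therefore stood above macrophage-marker cells in each library, and the myeloid cells that passed no subset threshold stood as high as the monocytes, with overlapping intervals (263 in anti-PD-1 and 568 in control). Neutrophil-marker cells had 186 in anti-PD-1 from 24 UMIs, with an interval that overlapped the monocytes, and 367 in control from 60 UMIs. Of the 8 classes, endothelial-marker cells were lowest in both libraries, with 4 Vegfa UMIs (17.2 CPM) in anti-PD-1 and 34 (40.0 CPM) in control.

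The other ligands had other orders over the same 8 classes. Vegfb, whose product binds Flt1, was highest in tumour-marker cells, at 233 CPM in the anti-PD-1 library and 241 in the control library. In anti-PD-1 its interval overlapped that of neutrophil-marker cells (147 from 19 UMIs). Vegfc was highest in fibroblast-marker cells, at 352 in anti-PD-1 and 271 in control, clear of tumour-marker cells at 171 and 173. Pgf was highest in endothelial-marker cells, at 379 in anti-PD-1 and 334 in control. Its next class of the 8 was the same remaining myeloid cells at 62.3 and 56.0, and tumour-marker cells had 7.84 and 11.5. Hmga2, a tumour-cell gene, stood in myeloid-marker cells at 14.2% of its tumour-marker level in anti-PD-1 and 20.8% in control, although it is itself a marker used to set the classes. Vegfc stood there at 22.0% and 31.9% of its tumour-marker level and Vegfb at 36.1% and 45.1%, so the low levels of Vegfc in myeloid-marker cells were not far above that of a tumour gene.

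Of the 8 classes, endothelial-marker cells had the highest level of each kinase receptor in each library, with no overlap with the next class. Flt1 had 1332 CPM (1187 to 1489) in anti-PD-1 endothelial-marker cells and 517 (470 to 568) in control ones. Kdr had 465 and 327, and Flt4 had 198 and 128. The endothelial level of Flt1 was 734-fold that of tumour-marker cells in the anti-PD-1 library and 165-fold in the control library. The 4 unranked mural-marker cells also had much Flt1, at 1126 CPM from 15 UMIs in anti-PD-1 and 1352 CPM from 52 UMIs in control, and 0 Kdr UMIs in both. Among the ranked classes the next for Flt1 was monocyte-marker cells, with 157 (133 to 185) in anti-PD-1 and 65.2 (49.6 to 84.1) in control, which was 10.1-fold and 6.93-fold the level in macrophage-marker cells. Flt1 was found in 78 of 362 anti-PD-1 monocyte-marker cells (21.5%) and 36 of 321 control ones (11.2%). T and NK-marker cells, which should lack it, had it in 2 of 197 (1.02%) in anti-PD-1 and 0 of 283 in control, which allows a level of up to 6.20 CPM at 3 counts. Median depths were lower in T and NK-marker cells (1405 UMIs in anti-PD-1 and 1358 in control) than in the whole myeloid class (2330 and 2183). In cells thinned to 2000 UMIs, which kept 204 monocyte-marker cells in each library, the monocyte shares were 21.1% and 10.8% and the T and NK shares were 0 of 42 and 0 of 62.

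The neuropilins were shared more evenly between the 8 classes and were highest among them in macrophage-marker cells. Nrp1 stood there at 302 CPM in anti-PD-1 and 208 in control. Endothelial-marker cells came next of the 8 at 237 and 131, with overlapping intervals in the anti-PD-1 library only. Macrophage-marker cells had 6.10-fold more Nrp1 than monocyte-marker cells in anti-PD-1 (4.56 to 8.33) and 3.03-fold more in control (2.33 at the lower bound). For Flt1 and Vegfa the order of the 2 cell groups was the opposite. Nrp2 had 418 and 291 in macrophage-marker cells, and tumour-marker cells followed among the 8 at 292 and 255. In the unranked mural-marker cells Nrp2 had 5 UMIs (375 CPM) in anti-PD-1 and 6 (156 CPM) in control.

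**Figure D1:**
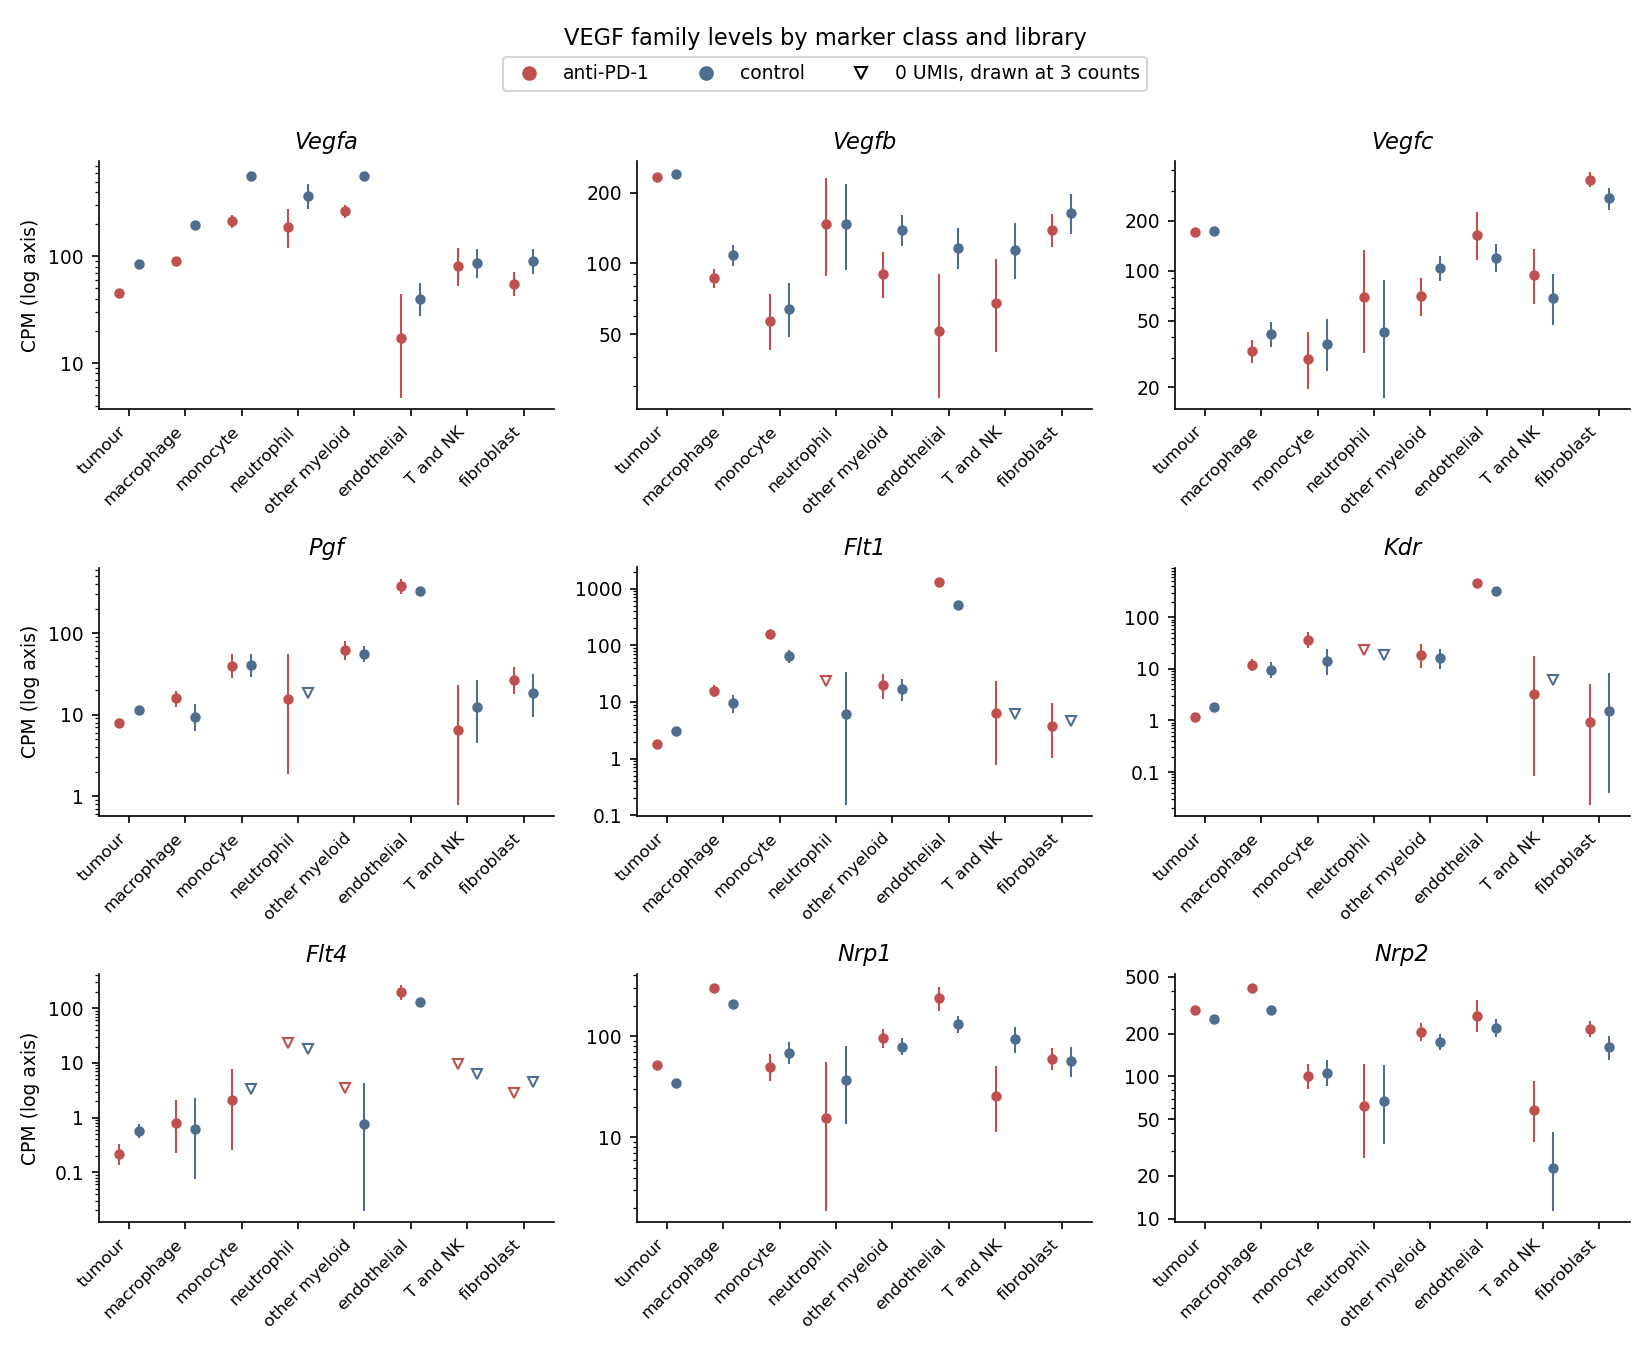
CPM (log axis) of each gene in 8 marker classes, anti-PD-1 left of control in each pair, with exact 95% Poisson intervals; open triangles mark 0 UMIs, drawn at the level of 3 counts. Flt1, Kdr, Flt4 and Pgf are highest of these 8 in endothelial-marker cells, Vegfa in monocyte-marker and other myeloid cells, and both neuropilins in macrophage-marker cells.

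Tumour-marker cells held 83.1% of all UMIs in the anti-PD-1 library and 81.6% in the control library, and 72.4% and 67.9% of Vegfa UMIs. The myeloid class held 14.9% and 16.9% of Vegfa UMIs with 5.98% and 4.93% of all UMIs. Endothelial-marker cells held 36.1% of all Flt1 UMIs in anti-PD-1 and 32.2% in control, with 0.20% and 0.75% of all UMIs. The myeloid class held 28.4% of Flt1 UMIs in anti-PD-1, against 8.19% in control, and 25.5% of Kdr UMIs, against 8.58%. Mixed cells held 10.9% of Flt1 UMIs in anti-PD-1 and 30.1% in control; 6 anti-PD-1 and 34 control cells passed both the tumour and the endothelial thresholds. Summed over all cells, Vegfa had 6030 UMIs in anti-PD-1 and 11506 in control (52.3 and 102 CPM, log2 ratio -0.96), and Flt1 had 856 and 1367 (log2 ratio -0.70). The sum for Flt1 was thus lower in anti-PD-1, while its levels within endothelial-marker and myeloid-marker cells, described below, were higher. In such sums fewer cells of a type and less RNA per cell cannot be told apart.

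**Figure D2:**
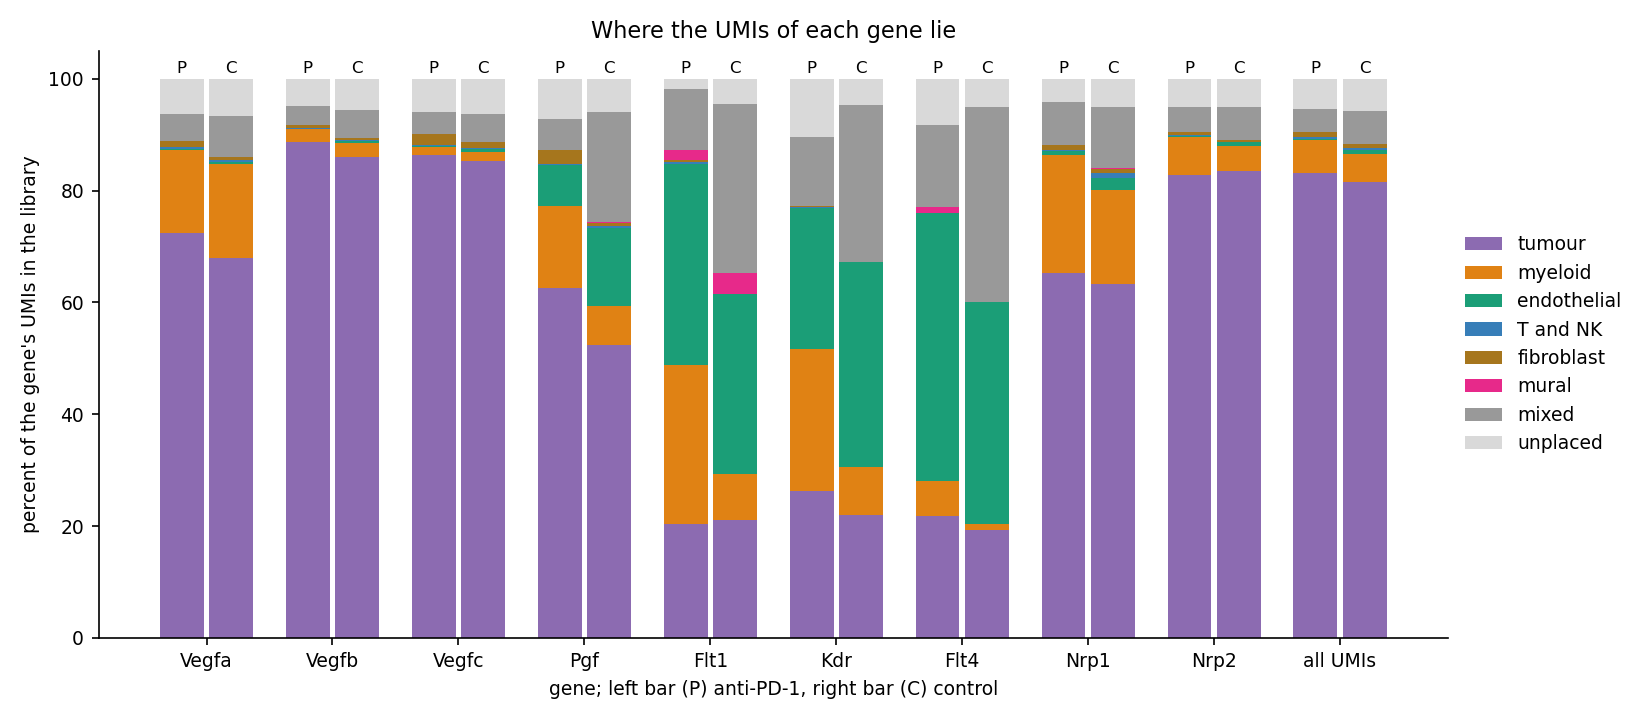
Percent of each gene's UMIs that lie in each class, anti-PD-1 (P) left of control (C), with the shares of all UMIs at the right. Tumour-marker cells hold most UMIs of 6 genes, and endothelial-marker, myeloid-marker and mixed cells hold most UMIs of Flt1, Kdr and Flt4.

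In tumour-marker cells Vegfa was lower and Nrp1 was higher in the anti-PD-1 library. Vegfa had 45.5 CPM in anti-PD-1 (44.2 to 46.9, 4365 UMIs) and 84.7 in control (82.8 to 86.6, 7818 UMIs), a log2 ratio of -0.90 (-0.95 to -0.84). Nrp1 had 52.1 (4992 UMIs) and 34.2 (3161 UMIs), a log2 ratio of 0.60 (0.54 to 0.67). Of 12618 genes with at least 50 UMIs in this class, 6.91% had a lower ratio than Vegfa and 96.4% a lower one than Nrp1. Vegfa was found in 34.9% of anti-PD-1 and 54.0% of control tumour-marker cells, whose median depths were 13312 and 16279 UMIs, and in 8.10% and 13.4% of them after thinning to 2000 UMIs. Pgf was at 7.84 and 11.5 (log2 ratio -0.55, -0.69 to -0.41), and Nrp2 at 292 and 255 (0.20). Vegfb (-0.05) and Vegfc (-0.01) were close to the median of all genes (-0.02), and median-of-ratios scaling, which moved every tumour-class ratio by 0.15, turned the sign of both.

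A member is called here where its level differed over 2-fold and the 2 libraries together held 50 UMIs of it or more. By that rule 0 of 9 members were higher in tumour-marker cells (0.808% of all genes were) and 1 was lower, Flt4, beside 5.79% of all genes. Under median-of-ratios scaling the split over all genes was 168 higher and 555 lower, against 102 and 731 with total UMIs. Flt4 rested on 21 UMIs in anti-PD-1 and 53 in control (log2 ratio -1.39, -2.19 to -0.64). Flt1 had 1.81 and 3.13 CPM in tumour-marker cells (-0.79) and Kdr 1.18 and 1.80 (-0.61). Tumour-marker cells with a UMI of the endothelial genes Cdh5 or Cldn5 were 7.07% of the class in anti-PD-1 and 14.0% in control. They held 20.7% of Flt1 UMIs of the class in anti-PD-1 and 44.3% in control, and for Flt4 19.0% and 47.2%. Without these cells the log2 ratio was -0.48 for Flt1, -0.49 for Kdr and -0.98 for Flt4, and that of Nrp1 stayed at 0.60. The endothelial marker list as a whole had 90.2 CPM in anti-PD-1 and 122 in control tumour-marker cells, and its part in the receptor values was not otherwise tested.

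In myeloid-marker cells Vegfa was lower, and Flt1, Nrp1 and Nrp2 were higher, in the anti-PD-1 library. Vegfa had 131 CPM in anti-PD-1 (122 to 139, 901 UMIs) and 348 in control (332 to 363, 1940 UMIs), a log2 ratio of -1.41 (-1.53 to -1.30). It was the only one of the 8 members with 50 or more UMIs past 2-fold lower, beside 2.04% of all genes, and 0 were past 2-fold higher (0.7% of all genes). With median-of-ratios scaling, which added 0.14 to each ratio, the split over all genes was 115 higher and 165 lower, against 74 and 216. Flt1 had 35.2 (243 UMIs) and 20.1 (112 UMIs), a log2 ratio of 0.81 (0.48 to 1.15). Nrp1 had 235 and 149 (0.65, 0.53 to 0.77) and Nrp2 had 340 and 227 (0.58). These 3 ratios lay above those of 98.7%, 97.8% and 97.0% of the 10573 genes measured, and Vegfa above 0.91%. Vegfb and Vegfc were lower in anti-PD-1 (-0.37 and -0.55), Pgf was about level (25.8 and 25.1), Kdr had 15.9 and 11.6 (0.45, -0.00 to 0.92), and Flt4 was too rare to compare, with 6 and 3 UMIs.

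The make-up of the myeloid class differed between the libraries, so the same genes were read within its subsets. Macrophage-marker cells were 54.5% of the class in anti-PD-1 and 44.4% in control, and monocyte-marker cells were 19.2% and 19.0%. Vegfa was lower in each subset. Its log2 ratio was -1.13 in macrophage-marker cells (90.6 in anti-PD-1 and 198 in control), -1.39 in monocyte-marker cells (213 and 560), -0.98 in neutrophil-marker cells (186 and 367, from 24 and 60 UMIs) and -1.11 in the rest (263 and 568). In macrophage-marker cells Vegfa was again the 1 member past 2-fold lower (1.59% of all genes) with 0 higher (0.873%), but its ratio was within 2-fold in 4 of 12 alternatives and -0.64 after thinning. Nrp1 (302 and 208, log2 ratio 0.54) and Nrp2 (418 and 291, 0.52) were higher in anti-PD-1 macrophage-marker cells. Pgf (15.8 and 9.41, 0.75) and Flt1 (15.6 and 9.41, 0.73) were higher there from 78 and 30 and from 77 and 30 UMIs.

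Monocyte-marker cells carried the larger Flt1 difference. Flt1 had 149 UMIs in anti-PD-1 (157 CPM) and 59 in control (65.2 CPM), a log2 ratio of 1.27 (0.83 to 1.73), above that of 99.7% of the 6470 genes measured there. It was the 1 member past 2-fold higher (0.819% of all genes) and Vegfa the 1 past 2-fold lower (1.78%). Only 2 of the 78 Flt1-positive anti-PD-1 monocytes and 0 of the 36 control ones had a Cdh5 or Cldn5 UMI, and without all cells that had one the Flt1 ratio was 1.16. With the class thresholds halved or doubled it was 0.92 or 0.86. Kdr had 35 and 13 UMIs in monocyte-marker cells (36.9 and 14.4 CPM), under the 50 needed, and Nrp1 (49.6 and 68.5) and Nrp2 (100 and 106) had intervals of the ratio that spanned 0. The split of all genes past 2-fold moved with median-of-ratios scaling in macrophage-marker cells (118 higher and 134 lower, against 87 and 158) and in monocyte-marker cells (70 and 86, against 53 and 115).

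**Figure D3:**
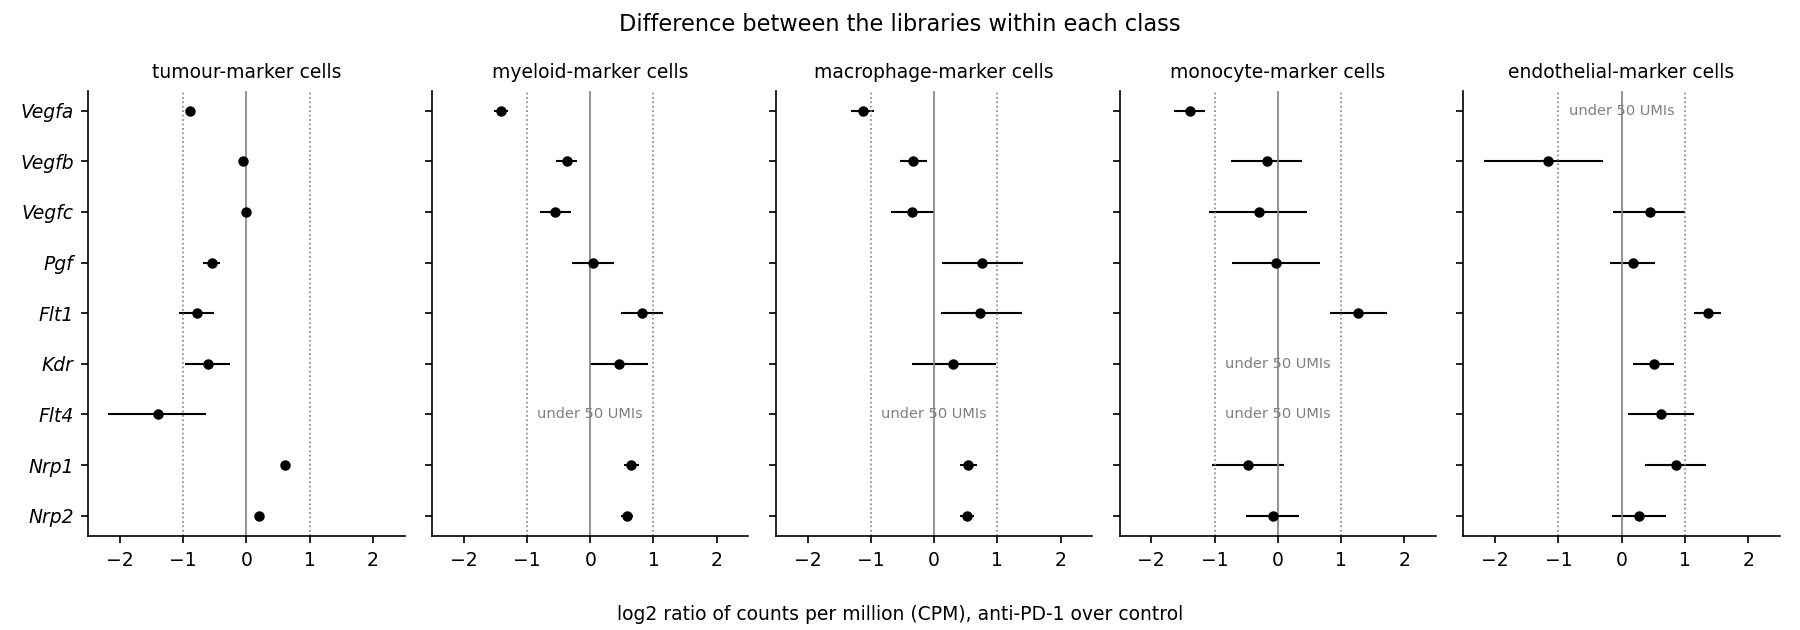
Log2 ratio of CPM, anti-PD-1 over control, for each gene in 5 classes, with exact 95% intervals for counting error; dotted lines mark 2-fold. Vegfa lies left of 0 in the tumour, myeloid, macrophage and monocyte classes, and Flt1 lies right of 0 in every class but the tumour one.

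Endothelial-marker cells were few, 31 in anti-PD-1 and 65 in control, and 1 deep cell in each library held 19.7% and 22.2% of the class's UMIs. Flt1 was the member with the largest difference. It had 309 UMIs in anti-PD-1 (1332 CPM) and 440 in control (517 CPM), a log2 ratio of 1.36 (1.15 to 1.58). Without the deepest cell of each library the levels were 1604 and 608 and the ratio was 1.40. The median anti-PD-1 cell had a Flt1 level of 746 CPM within its own UMIs and the highest 4589, against 279 and 3130 in control, and 9 of 31 and 26 of 65 cells had no Flt1 UMI. The ranges of single cells therefore overlapped widely. Flt1 was the 1 member past 2-fold higher (2.61% of all genes) and Vegfb the 1 past 2-fold lower (8.36%), from 12 UMIs in anti-PD-1 and 99 in control (log2 ratio -1.17, -2.17 to -0.30), of the 8 members measured. The Vegfb ratio was within 2-fold in 5 of 12 alternatives, which ranged from -1.84 to -0.29. With the class thresholds halved or doubled the Flt1 ratio was 0.99 or 0.90, so the call did not hold under either.

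Kdr had 465 CPM in anti-PD-1 and 327 in control endothelial-marker cells (log2 ratio 0.51, 0.18 to 0.83). Its sign changed with halved thresholds (-0.02) and after thinning (-0.49). Flt4 had 198 and 128 (0.63, 0.10 to 1.14) from 46 and 109 UMIs, and Nrp1 had 237 and 131 (0.86, 0.37 to 1.34), which became -0.03 after thinning. The intervals of Nrp2 (267 and 220), Pgf (379 and 334) and Vegfc (164 and 120) spanned 0. Most Flt4 UMIs lay in cells without lymphatic gene UMIs. Of the lymphatic genes Prox1, Mmrn1, Reln and Ccl21a, 0 of 31 anti-PD-1 cells and 2 of 65 control cells had a UMI, while 16 and 34 cells had Flt4. Cells without a lymphatic gene held all 46 Flt4 UMIs in anti-PD-1 and 108 of 109 in control. Lyve1, another lymphatic gene, was left out because macrophages express it too.

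Many endothelial-marker cells held UMIs of more than 1 receptor. Flt1 and Kdr were both found in 20 of 31 anti-PD-1 cells (64.5%, 45.4 to 80.8) and 32 of 65 control cells (49.2%, 36.6 to 61.9). After thinning to 2000 UMIs the shares were 36.4% of 22 cells and 33.3% of 48 cells, with overlapping intervals. Among the 22 thinned anti-PD-1 cells Flt1 was found in 16, Kdr in 11 and both in 8. Among the 48 thinned control cells Flt1 was found in 28, Kdr in 29 and both in 16. Whether both genes met more often than these single counts would give was not tested. At least 1 of Flt1, Kdr and Flt4 was found in 80.6% and 76.9% of the cells, and all 3 in 38.7% and 35.4%. The summed mural marker list had 315 CPM in anti-PD-1 and 138 in control endothelial-marker cells, and the endothelial list had 14832 and 10335. The part of these differences in the receptor values was not tested.

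**Figure D4:**
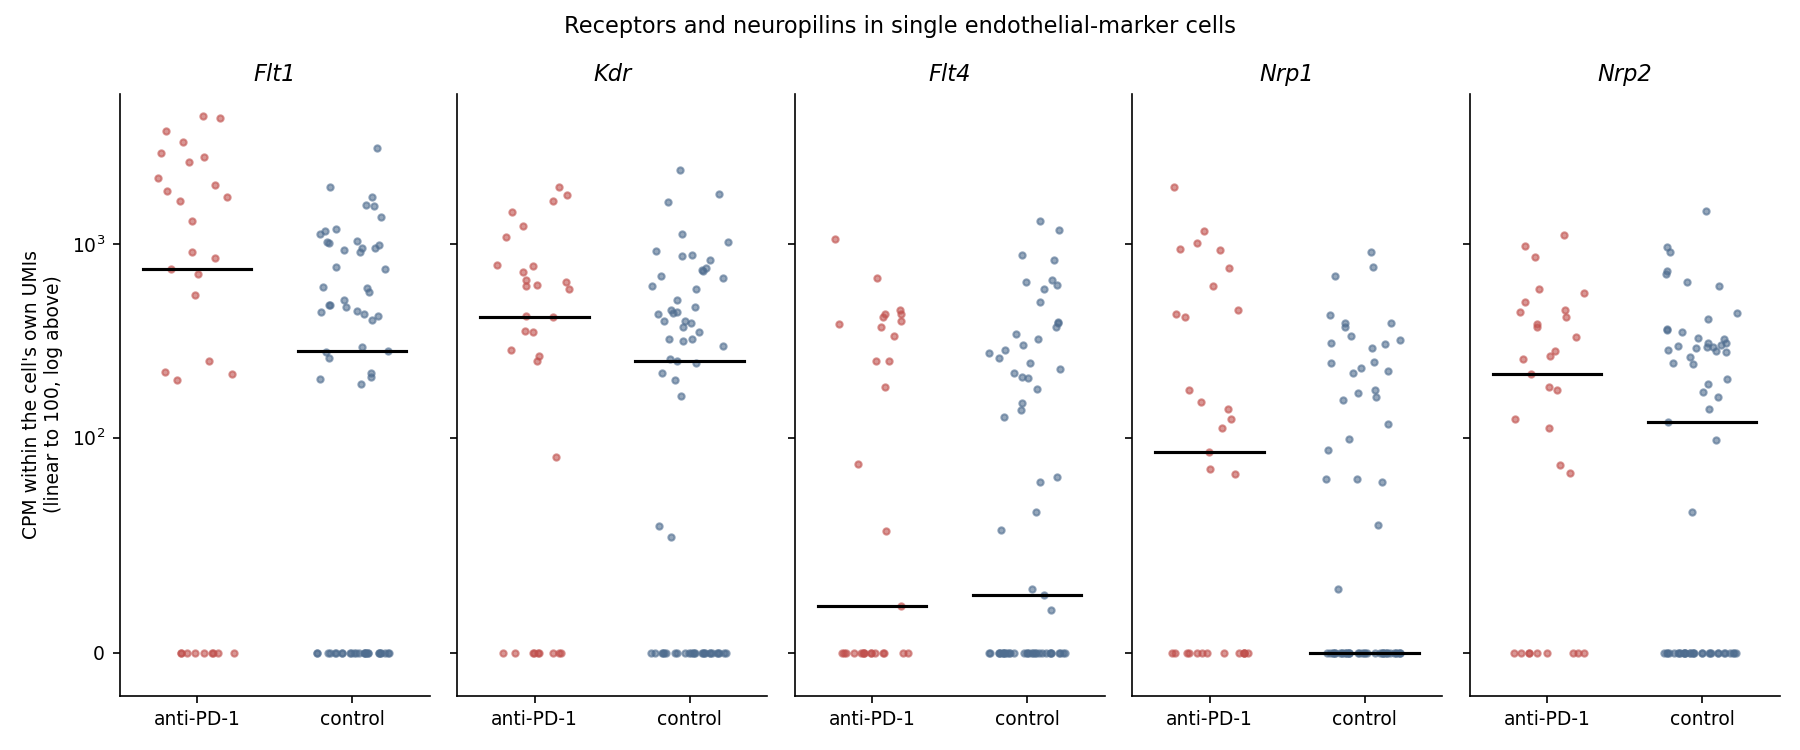
Flt1, Kdr, Flt4, Nrp1 and Nrp2 in each of 31 anti-PD-1 and 65 control endothelial-marker cells, as CPM within the cell's own UMIs (linear to 100, log above); bars are medians. For Flt1 the median is 746 in anti-PD-1 and 279 in control, and the single cells of both libraries reach 0.

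In T and NK-marker cells Nrp1 had 8 UMIs in anti-PD-1 (25.9 CPM) and 45 in control (92.9 CPM), a log2 ratio of -1.84 (-3.14 to -0.74). It was the only called member of the 4 measured there, beside 2.85% of all genes lower and 1.4% higher. In cells thinned to 2000 UMIs, Nrp1 had 4 UMIs in 42 anti-PD-1 cells and 11 in 62 control cells. The means were 0.095 and 0.177 UMIs per cell, which is within 2-fold. This call was not checked under the alternatives used for the other classes. Nrp1 is also known as a marker of some regulatory T cells. In fibroblast-marker cells 0 of 5 members were past 2-fold, where 1.09% of all genes were higher and 3.18% lower. Vegfc had 352 CPM in anti-PD-1 and 271 in control fibroblast-marker cells (0.38, 0.12 to 0.64), and Vegfa had 55.4 and 89.9.

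In tumour-marker and myeloid-marker cells, Vegfa and Pgf were highest in cells with high hypoxia gene levels, in both libraries. Cells of a class were cut into 3 equal parts, over both libraries, by their summed level of 21 measured hypoxia genes (such as Slc2a1, Adm and Ndrg1) that hold no VEGF member. In tumour-marker cells Vegfa had 24.9, 30.0 and 107 CPM from the low to the high part in anti-PD-1 and 37.6, 42.7 and 123 in control. The high part stood 4.31-fold above the low part in anti-PD-1 and 3.27-fold in control. Pgf had 3.70, 3.74 and 21.9 in anti-PD-1 and 4.75, 6.19 and 16.4 in control, and for Vegfb and Vegfc the high part stood at 0.98-fold and 1.13-fold the low part in anti-PD-1 and 1.07-fold and 0.99-fold in control. In myeloid-marker cells Vegfa had 49.6, 107 and 455 in anti-PD-1 and 66.7, 162 and 797 in control, and the high part stood 9.19-fold and 11.9-fold above the low part. Nrp1 ran the other way there, with 288, 226 and 82.9 in anti-PD-1 and 189, 168 and 95.2 in control. Its high part stood at 0.29-fold the low part in anti-PD-1 and 0.50-fold in control. Within macrophage-marker cells this fall was smaller, at 0.57-fold and 0.72-fold. The part of the subset make-up in the pooled fall was not tested. The cut points have no gap around them: 33.5% of anti-PD-1 and 33.3% of control tumour-marker cells lay within 10% of one.

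The libraries also differed in how many cells fell in each part. Of tumour-marker cells, 20.8% in anti-PD-1 and 50.3% in control were in the high part, and 46.7% and 15.3% were in the low part. The median cell had a summed hypoxia gene level of 2951 CPM in anti-PD-1 and 4111 in control. Within the parts the Vegfa ratio of tumour-marker cells was nearer to 0 than the -0.90 over the class, at -0.59, -0.51 and -0.20 from low to high. With the 3 parts weighted equally it was -0.33, and with 5 parts -0.23. With parts set from counts thinned to 2000 UMIs, and levels from all UMIs of the cells kept, it was -0.52. For Pgf the value with equal weights was 0.10, against -0.55 over the class, and parts set from thinned counts turned its sign (-0.18). For Nrp1 it was 0.51, close to the 0.60 over the class.

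In myeloid-marker cells Vegfa stayed lower in anti-PD-1 in each part (log2 ratios -0.43, -0.60 and -0.81). Equal weights gave -0.75, or -0.76 with parts set from thinned counts and levels from all UMIs. Myeloid Pgf was higher in anti-PD-1 in each part, at 12.8 and 3.96 in the low one (43 and 6 UMIs), 17.6 and 8.61 in the middle one, and 88.7 and 61.9 in the high one. With parts set from thinned counts this did not hold in the middle part, with 11.4 in anti-PD-1 and 13.0 in control (log2 ratio -0.20). Equal weights gave a Pgf log2 ratio of 0.68, or 0.51 with parts set from thinned counts, against 0.04 over the class. Monocyte-marker cells differed between parts. In the high part they had a Vegfa level of 423 CPM in anti-PD-1 and 1006 in control (log2 ratio -1.25), and in the low part 175 and 69.7 (66 and 14 UMIs, 1.33). In the middle part Vegfa had 134 and 294 (-1.14), so its anti-PD-1 level did not rise steadily from low to high. Flt1 was higher in anti-PD-1 monocyte-marker cells in every part, with log2 ratios of 1.05, 1.13 and 1.27 from low to high.

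**Figure D5:**
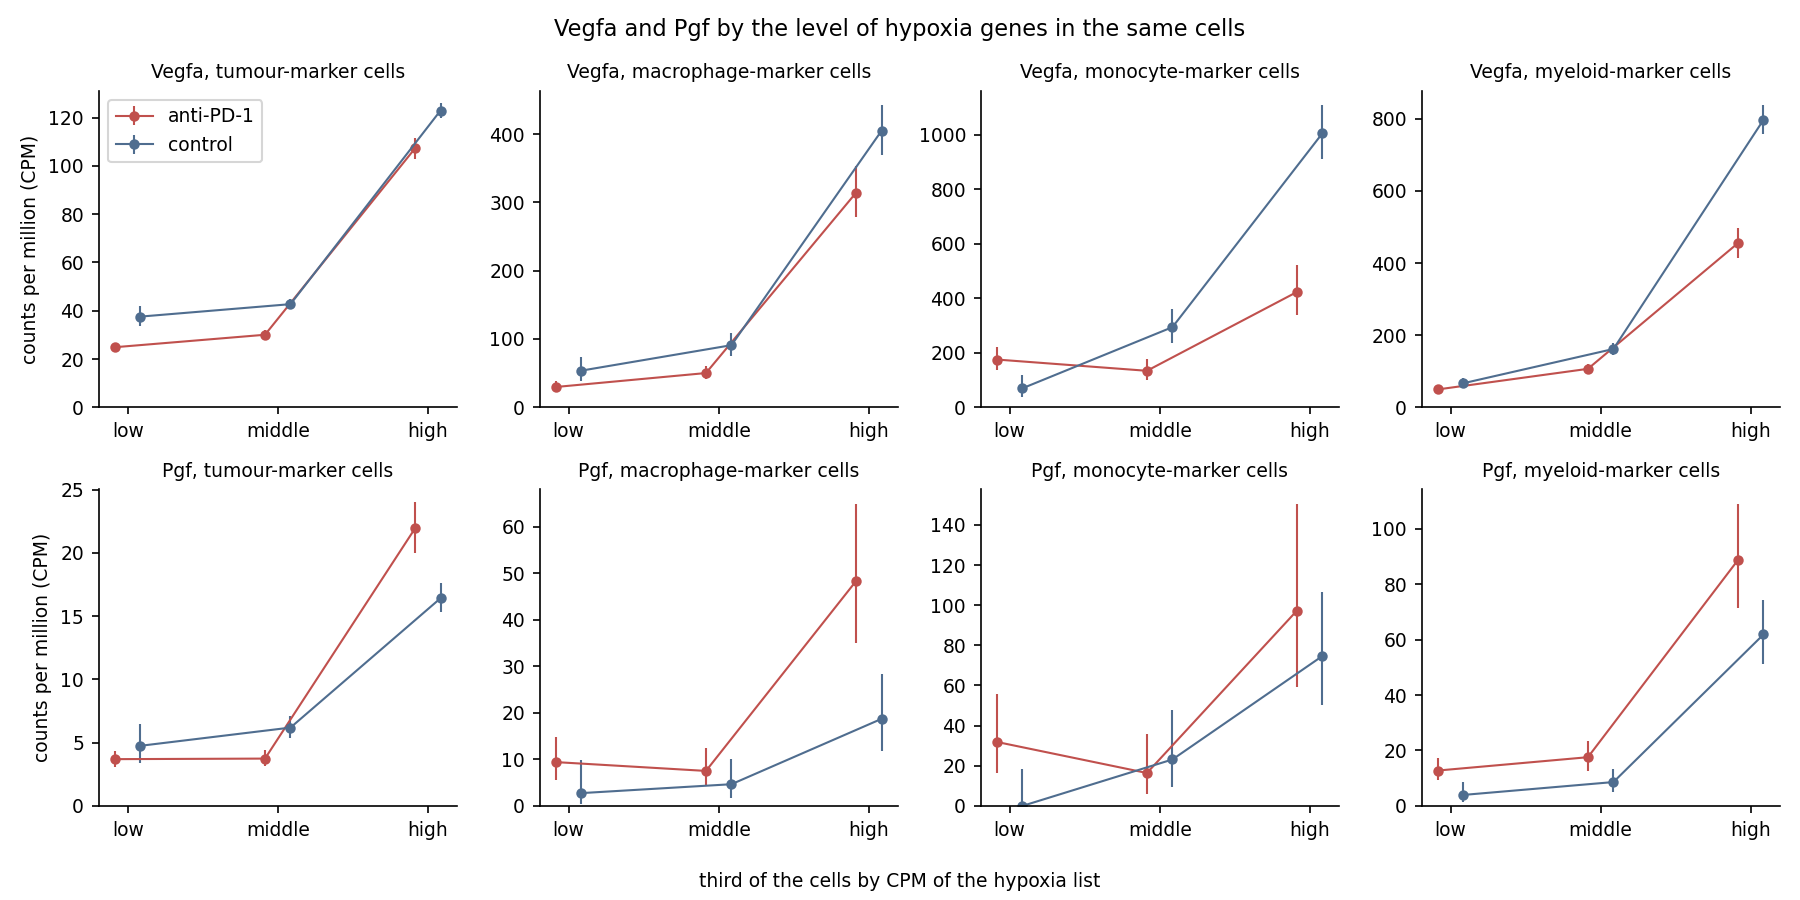
Vegfa (top) and Pgf (bottom) in CPM by hypoxia part, from low to high, in 4 marker classes, anti-PD-1 left of control, with exact 95% Poisson intervals. Both genes are highest in the high part; in tumour-marker cells Vegfa reaches 107 in anti-PD-1 and 123 in control there.

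Single cells with much Vegfa were rarer in the anti-PD-1 library. Thinning to 2000 UMIs kept 204 monocyte-marker cells in each library. Of these, 3.43% in anti-PD-1 and 18.1% in control had 3 or more Vegfa UMIs. Of the 1124 anti-PD-1 and 932 control myeloid-marker cells kept, 3.47% and 10.9% did. Of the macrophage-marker cells kept, 3.18% and 5.15% did, with overlapping intervals. Among thinned myeloid-marker cells, Nrp1 was found in 17.1% of those with Vegfa and 29.9% of those without it in anti-PD-1, and in 11.9% and 27.4% in control. Vegfa and Nrp1 thus tended to lie in different myeloid cells in each library. In tumour-marker cells the shares with Nrp1 were 7.80% beside Vegfa and 10.5% without it in anti-PD-1, and 4.44% and 6.77% in control.

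Other genes of the pathway were read from lists that hold no member. Of the angiogenesis partners 21 were measured in endothelial-marker cells, with 5 past 2-fold higher, 1 past 2-fold lower and a median log2 ratio of 0.70. Over all genes of that class 2.61% were past 2-fold higher and 8.36% lower, with a median of -0.09. The endothelial marker list stood at 14832 CPM in anti-PD-1 and 10335 in control in those cells, the tumour list at 151 and 269 and the macrophage list at 530 and 913, and the part of these gaps in the list's values was not tested. Aplnr, the apelin receptor of sprouting endothelium, had 577 CPM in anti-PD-1 and 196 in control (1.56), and Efnb2, an arterial ephrin, had 569 and 218 (1.39). Thbs2, an inhibitor of vessel growth, had 7 and 135 UMIs there (-2.40), with the other sign in 2 of 12 alternatives. In tumour-marker cells 7 of 23 partners were past 2-fold lower and 0 higher, with a median of -0.64, beside 5.79% and 0.808% of all genes. The named ones were endothelial genes at low levels: Vash1, an inhibitor of vessel growth made by endothelium (0.19 and 1.14), Esm1, a proteoglycan of tip cells (0.92 and 4.17), and the receptor Tie1 (0.49 and 1.97), which is also a marker used to set the endothelial class. Of the 23 ratios 18 were below 0 and 5 above, the highest being that of Thbs2 (305 and 186). The list was not read without tumour-marker cells that had a Cdh5 or Cldn5 UMI (7.07% in anti-PD-1 and 14.0% in control). In myeloid-marker cells 1 of 13 was higher and 1 lower, beside 0.7% and 2.04% of all genes. The sphingosine receptor S1pr1 had 37.8 and 16.5 (1.20) and was within 2-fold in 3 of 12 alternatives. The secreted lipase inhibitor Angptl4 had 3.33 and 8.42 (-1.34), from 23 and 47 UMIs. It was within 2-fold in 5 of 12 alternatives, the nearest to 0 being -0.11.

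Of the semaphorin and plexin partners of neuropilins, 11 were measured in tumour-marker cells, with 1 past 2-fold higher and 2 lower (0.808% and 5.79% of all genes) and a median of 0.34. Sema3b had 9.31 CPM in anti-PD-1 and 3.93 in control (1.24), Sema3f had 2.98 and 7.28 (-1.29), and Sema3g had 0.31 and 0.76 (-1.28), with the other sign in 1 of 12 alternatives. In myeloid-marker cells 0 of 8 were past 2-fold higher and 1 lower (0.7% and 2.04% of all genes), namely Sema3f, at 2.32 and 6.45. In endothelial-marker cells 0 of 7 were higher and 1 lower (2.61% and 8.36% of all genes), namely Sema3e, from 5 and 50 UMIs, with the other sign in 6 of 12 alternatives. Sema3f was abundant in endothelial-marker cells, at 1379 and 814 (0.76).

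Genes downstream of the receptors were seldom past 2-fold, as was the case over all genes. In tumour-marker cells 0 of 19 were past 2-fold higher or lower (0.808% and 5.79% of all genes). The median was -0.10, beside -0.02 over all genes. In myeloid-marker cells 0 of 19 were past 2-fold (0.7% of all genes higher and 2.04% lower). The median there was -0.21, beside -0.09 over all genes. In endothelial-marker cells 0 of 15 were higher and 1 lower (2.61% and 8.36% of all genes). This was the kinase Src, from 5 and 52 UMIs, with the other sign in 1 of 12 alternatives. The largest in size among tumour-marker cells was the stress kinase Mapkapk2, with 96.6 CPM in anti-PD-1 and 153 in control (-0.66). Among myeloid-marker cells it was Rcan1, a calcineurin inhibitor induced by VEGF signalling in endothelium, with 7.25 and 13.3 (-0.87). Of the hypoxia regulators 8 were measured in the tumour class, with 0 past 2-fold higher and 1 lower (0.808% and 5.79% of all genes), and 8 in the myeloid class, with 0 higher and 2 lower (0.7% and 2.04%). Egln3, an oxygen-sensing prolyl hydroxylase that hypoxia itself induces, had 58.0 and 110 in tumour-marker cells (-0.92), 52.2 and 159 in myeloid-marker cells (-1.61) and 43.1 and 108 in endothelial-marker cells (-1.33). Epas1, a hypoxia-inducible factor that endothelium expresses strongly, had 0.99 and 3.69 in tumour-marker cells (-1.90). Of the hypoxia list itself 21 of 21 genes in tumour-marker cells and 19 of 20 in myeloid-marker cells had a ratio below 0. Their medians were -0.49 and -0.60, beside -0.02 and -0.09 over all genes. For scale, 50.8% of all measured genes lay below -0.01 in the tumour class and 67.5% below 0.04 in the myeloid class. By the 2-fold rule 2 of 21 and 1 of 20 were lower (5.79% and 2.04% of all genes). In both classes 0 were higher (0.808% and 0.7%).

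Genes with profiles most like a member's were taken over 16 values (8 classes in 2 libraries), with members and class markers left out. For Vegfa they were Vamp4, Scand1 and Soat1 (Pearson's r of 0.92, 0.90 and 0.90 on log2 of CPM plus 1). For Flt1 they were Abca3, Nhsl2 and Hoxb4 (0.89, 0.89 and 0.87), and for Kdr Nhsl2, Rem1 and Abca3 (0.93, 0.93 and 0.92). For Pgf they were Plekhg2, Plekha1 and Fam131a (0.89, 0.88 and 0.87). For Nrp1 they were Retnla, Ccdc28b and Itga9 (0.88, 0.85 and 0.83), and for Nrp2 Plbd2, Emp1 and Erlin2 (0.92, 0.92 and 0.91). The values share their libraries and depths, so r is a description only.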

How the data were processed

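Per the file headers the matrices are gene by barcode UMI counts from Cell Ranger 9.0.1, while the submitters' processing notes name Cell Ranger 7.0.1 and mm10. Per the labels' protocols tumour tissue was removed and libraries were made with a 10x Genomics Flex kit, with a 3' protocol also named, so whether probes or polyA capture were read is not settled. The deposited counts were used as they are, and no per-sample value was normalized by the authors. Levels are compared within a gene only.

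Kept cells had 300 genes or more and no more than 20% of UMIs from mitochondrial genes. A cell entered a class from its UMIs of the class's markers per 1000000 of its own (tumour 500, myeloid 5000, endothelial 2000, T and NK 2000, fibroblast 5000, mural 2000) and from a minimum number of distinct markers (2, 4, 3, 2, 3 and 3 in that order). Within the myeloid class, subset thresholds were 5000 for macrophages, 1000 for monocytes, and 2000 for neutrophils and dendritic cells. The markers Ly6c2 and Mmrn2 were not used here, nor were the pathway genes Notch4, Nos3 and Ca9. Thresholds were set after seeing marker UMIs, not the members. The members and lists were chosen with earlier results of these data known.

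UMIs were summed per class and library and divided by the class total. Exact Poisson, Clopper-Pearson and conditional binomial intervals (95%) cover counting error only. With 1 library per group there was no test; a call means over 2-fold with at least 50 UMIs over both libraries, and a count of 0 is set at 3 counts. Shares were also computed in cells thinned to 2000 UMIs. The ratio, call and interval steps were tested on simulated counts. All 9 members are named, with up to 3 genes of largest log2 ratio per list and class, and the 3 genes of highest Pearson's r per member. Promoter windows come from RefSeq (GRCm38.p6) and gene positions from GENCODE M21 (mm10). Alternatives changed thresholds, mixed cells, cell filters, summing, depth, scaling, deep cells and the UMI minimum; leaving out the deepest cell, shared barcodes or cells with Cdh5 or Cldn5 UMIs, and the other hypoxia parts, were chosen after seeing the data. Python 3.11.15, numpy 2.4.6, scipy 1.17.1, pandas 2.3.3 and matplotlib 3.10.9 were used.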

Additional observations from a re-analysis of the deposited data

Results flagged for a closer look

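The ratio of the libraries differed in sign between classes for the kinase receptors, and none of these differences was tested. For Flt1 the log2 ratio, anti-PD-1 over control, was 0.81 in myeloid-marker cells and -0.79 in tumour-marker cells, a difference of 1.60. In endothelial-marker cells it was 1.36, which is 2.15 above tumour-marker cells. For Kdr the endothelial value was 1.12 above the tumour one, and for Flt4 it was 2.02 above. The endothelial Kdr ratio had the other sign in 2 of 12 alternatives (lowest -0.49), and the lowest alternative for endothelial Flt4 was 0.003. In tumour-marker cells Flt4 rested on 21 UMIs in anti-PD-1 and 53 in control. Tumour-marker cells with a Cdh5 or Cldn5 UMI were 7.07% of the class in anti-PD-1 and 14.0% in control, and without them the tumour-marker ratios were -0.48 for Flt1, -0.49 for Kdr and -0.98 for Flt4.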

How the results depend on the processing

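The direction of Vegfa held in tumour-marker cells under all 12 alternatives and in myeloid-marker cells under all 13. In tumour-marker cells (-0.90) its log2 ratio was -1.02 with class thresholds doubled, -0.81 as the mean of cells, -0.82 after thinning and -0.74 with median-of-ratios scaling. In myeloid-marker cells (-1.41) it was -1.29 with mixed cells put in their best class, -1.29 as the mean of cells, -1.23 after thinning and -1.27 with median-of-ratios scaling. The number of members past 2-fold in tumour-marker cells (1) was 2 with thresholds doubled, which added Vegfa, and 0 after thinning or with at least 200 UMIs. In myeloid-marker cells (1) it was 2 as the mean of cells and without cells over 3 times the median depth, both times adding Flt1. In endothelial-marker cells (2, Flt1 and Vegfb) it was 0 with thresholds halved and 3 as the mean of cells (Vegfc, Flt1 and Nrp1). It was 1 with thresholds doubled (Vegfa), after thinning (Flt1) and with at least 200 UMIs (Flt1). Without cells over 3 times the median depth the members were Vegfc and Flt1. With mixed cells put in their best class they were Flt1 and Vegfa. Vegfa was added with at least 20 UMIs or no minimum. The cause was not tested. Halving the thresholds left 25 anti-PD-1 and 56 control endothelial-marker cells and doubling left 33 and 80. Over all members, 92 of 113 alternative values in tumour-marker, 95 of 108 in myeloid-marker and 78 of 96 in endothelial-marker cells stayed within the counting interval, and 2, 5 and 10 had the other sign. No paired analysis was possible because each group has 1 library. In endothelial-marker cells depth limits Vegfa, which had 4 UMIs in anti-PD-1.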
